A study of Bos taurus with 8 samples.

Results

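The genes described here write, maintain and remove methyl groups on DNA, or are maternal factors that act on the chromatin of the early embryo. They are 10 listed genes: the DNA methyltransferases DNMT1, DNMT3A and DNMT3B, the methylcytosine dioxygenases TET1, TET2 and TET3, the maintenance cofactor UHRF1, and the maternal factors DPPA3, TRIM28 and NPM2. All 10 were among the 16606 genes of the deposited table and among the 12129 that were tested, whose mean level reached 1 CPM (reads per 1000000 reads). They were chosen by name and function, with earlier results of these data known. RNA was sequenced from bovine (Bos taurus) embryos of 4 and of 8 cells, edited or control, each library from a pool of 5 embryos, with 2 libraries in each of 4 groups. Edited embryos were injected in the cytoplasm as zygotes with PEmax, a prime editor made of a Cas9 nickase and a reverse transcriptase, and a guide RNA for the RPL12 edit named A148G. Control embryos came from the same in vitro maturation and fertilisation of slaughterhouse oocytes. The labels do not say whether controls were injected, whether cumulus cells were removed, or what share of alleles was edited, and they call the 4-cell samples oocytes in the source name and 4-cell embryos in the title. The titles call the edited samples base edited, although PEmax is a prime editor.

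DNA methylation at CpG sites is copied after replication by DNMT1, which UHRF1 brings to hemimethylated DNA. DNMT3A and DNMT3B set new methylation. TET enzymes oxidise 5-methylcytosine, and oxidised bases are lost by replication or cut out by the glycosylase TDG and base excision repair. In the mammalian zygote the genome loses much of its gametic methylation, with TET3 from the egg acting on the paternal genome. The maternal protein DPPA3 (also called STELLA) shields the maternal genome from TET3 and keeps UHRF1 from the chromatin of the oocyte. TRIM28, recruited by zinc finger proteins, preserves methylation at imprinted loci. NPM2 is the egg's nucleoplasmin, a histone chaperone that remodels sperm chromatin.

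Between 33527531 and 35122409 reads per library were recovered from the table, and 9 of the 10 genes had at least 114 reads in every library. TET1 had between 13 and 115 reads. RPL12, the edited gene, stood between 96.3 and 174 CPM in the 4 control libraries and between 11.9 and 33.6 CPM in the 4 edited ones. The oocyte markers were abundant in all groups: 10 of 10 had reads in every library, and their summed level was 17224 to 22271 CPM in 4-cell controls and 32736 to 50704 CPM in the other 6 libraries. Most of that sum was BTG4, with 12015 CPM in the first 4-cell control library. In edited embryos 5 of the 10 oocyte markers were called higher and 0 lower at the 4-cell stage (median log2 fold change 0.64). There 18.9% of all tested genes were called higher and 25.8% lower. In 8-cell embryos 2 of these markers were called higher and 0 lower, beside 1.08% and 14.5% of all tested genes. Higher was also the direction in which DPPA3 differed. The part of the oocyte markers in the results was not tested. Markers of cumulus and granulosa cells were also detected, 18 of 18 in the table. Their summed level was 1357 to 1712 CPM in 4-cell controls against 441 to 482 CPM with editing, and 571 to 903 CPM in 8-cell controls against 448 to 459 CPM. Of the 16 tested, 11 were called lower in 4-cell edited embryos, beside 25.8% of all genes. In 8-cell edited embryos 5 were called lower, beside 14.5% of all genes. HAS2 was called higher at the 4-cell stage. AMHR2 was at 0 in both 4-cell edited libraries. Stromal and blood markers (6 of 7 in the table, largely LUM) summed to 3052 to 6314 CPM in 4-cell controls against 1313 to 1927 CPM with editing, and to 2571 to 3106 CPM in 8-cell controls against 127 to 771 CPM. Of the 5 tested, 5 were called lower in 4-cell edited embryos, beside 25.8% of all genes. In 8-cell edited embryos 4 were called lower, beside 14.5% of all genes.

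Edited embryos were compared with controls at the 4-cell stage. DPPA3 and UHRF1 were higher in edited embryos and DNMT1 was lower, by limma at an adjusted p-value under 0.05. The other 7 genes did not pass. Of all tested genes 44.7% were called at this stage (18.9% higher and 25.8% lower), so 3 of 10 is no more than the background. Edited and control libraries did not overlap for 8 of the 10 genes, 6 higher and 2 lower, where 71% of all tested genes did not overlap (33.5% higher and 37.5% lower). The median log2 fold change was 0.41 for the 10 genes and -0.02 for all tested genes. The replicate labels do not say whether libraries came from separate cultures, so p-values measure the spread between these libraries, which may be technical. In pooled embryos fewer cells of a type and less RNA per cell cannot be told apart, and a CPM value is a share of the library. With the summed log2 level of the cumulus and granulosa markers as a covariate, 0 of the 10 genes were called by limma, 1 of them had an unadjusted p-value under 0.05, and 3 genes of the whole table were called. RPL12 itself was not called in that fit (-2.05 on the log2 scale, limma adjusted p-value 0.191). The covariate was 73.73 and 76.39 in 4-cell controls against 44.59 and 53.03 with editing. In 8-cell embryos it was 56.91 and 70.85 in controls against 46.94 and 42.44. It was lower in each edited library than in the controls of its stage, and this fit cannot tell it from editing. With it the 4-cell SE rose from 0.283 to 0.685 for DPPA3, from 0.206 to 0.547 for DNMT1 and from 0.244 to 0.625 for UHRF1. The log2 fold changes went from 1.95 to 1.87 for DPPA3, from -0.60 to -0.88 for DNMT1 and from 0.82 to 0.44 for UHRF1.

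**Figure D1:**
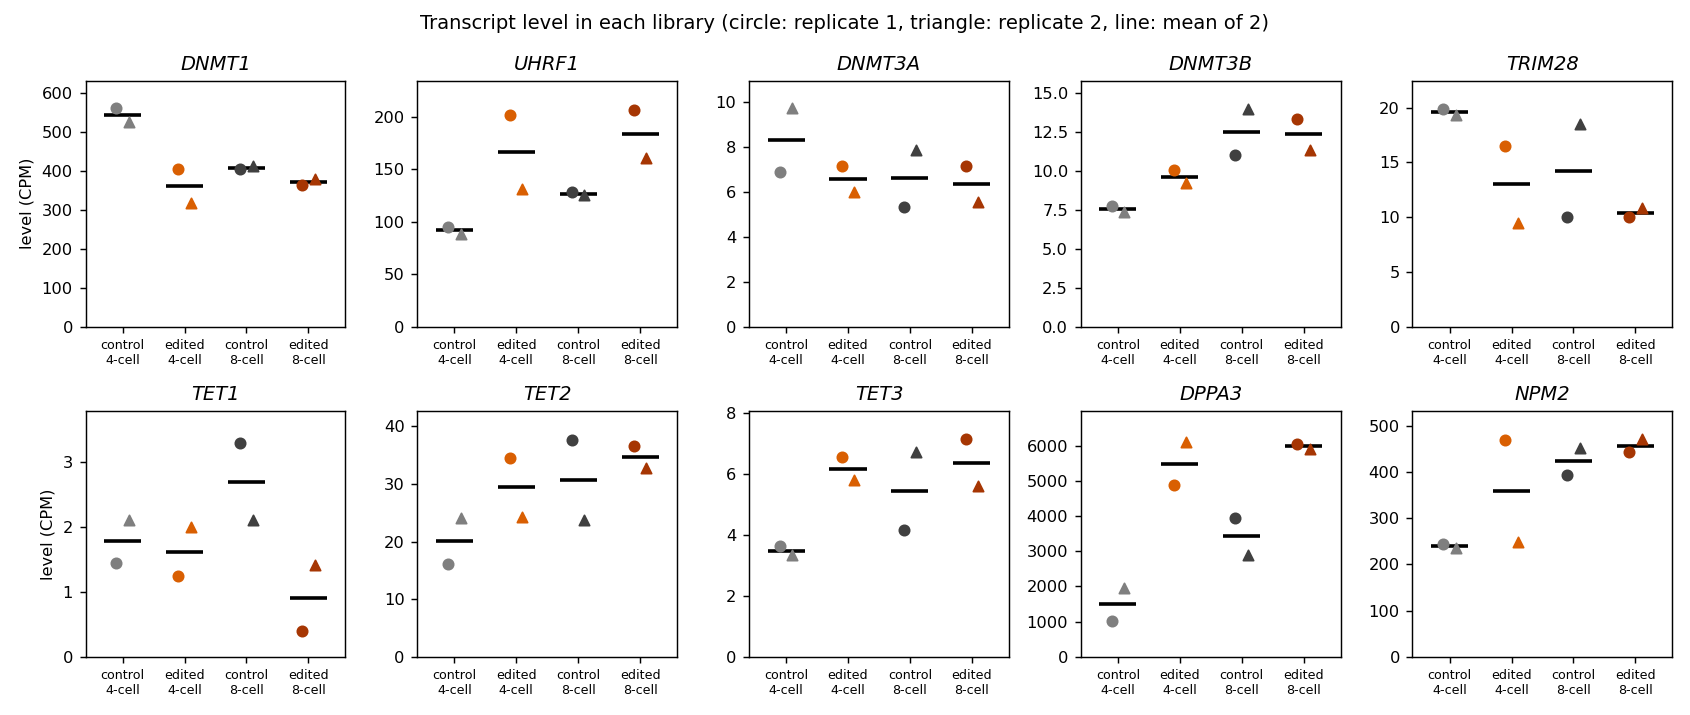
Level of each of the 10 genes in CPM (vertical axes start at 0 and differ between panels) in the 8 libraries, by group, with 1 symbol per library and a line at the mean of 2. DPPA3 lay at 1016 and 1962 CPM in 4-cell controls and between 4873 and 6092 CPM in the 4 edited libraries, while DNMT3A and TET2 overlapped between most groups.

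Maintenance of methylation is described first. DNMT1 stood at 562 and 527 CPM in the 4-cell control libraries and at 406 and 317 CPM in the 4-cell edited ones. The 8-cell controls had 405 and 412 CPM, and the 8-cell edited libraries had 364 and 379 CPM. The 4-cell controls were thus the high group, and the other 3 groups lay close together. With editing DNMT1 changed at the 4-cell stage by -0.60 on the log2 scale (95% confidence interval -1.03 to -0.16, limma adjusted p-value 0.0263). This call was lost with the CPM rescaled by TMM factors (-0.48, limma adjusted p-value 0.0797), with edgeR's quasi-likelihood test (-0.48, adjusted p-value 0.0955), with only the 4 libraries compared (limma adjusted p-value 0.0747), without the first 4-cell control library (limma adjusted p-value 0.0825) and without the second 4-cell edited library (limma adjusted p-value 0.167). Its change in 8-cell embryos was -0.14 (interval -0.57 to 0.30).

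UHRF1 stood at 94.9 and 88.2 CPM in 4-cell controls and at 202 and 131 CPM in 4-cell edited embryos. The 8-cell controls had 128 and 125 CPM against 207 and 160.3 CPM in the edited libraries. Each edited library was above both controls of its stage, and the edited libraries of a group differed by up to 1.54 times. With editing UHRF1 differed by 0.82 on the log2 scale in 4-cell embryos (interval 0.30 to 1.34, limma adjusted p-value 0.0122), and the 8-cell value was 0.52 (interval 0.00 to 1.04, limma adjusted p-value 0.181). Without the first 4-cell edited library the 4-cell change was 0.51 and did not pass (limma adjusted p-value 0.15). The 8-cell value of UHRF1 was 0.34 without the first 8-cell edited library.

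Because UHRF1 acts by bringing DNMT1 to DNA, the ratio of their CPM was taken within each library, a description chosen after the values were seen. A ratio does not depend on the scaling of a library. The ratio of UHRF1 to DNMT1 was 0.169 and 0.168 in the 4-cell controls against 0.496 and 0.412 in the edited libraries of that stage. The 8-cell controls had ratios of 0.315 and 0.304 against 0.568 and 0.422 with editing. The mean ratio of edited embryos was 2.70 times that of controls at the 4-cell and 1.60 times at the 8-cell stage. Each edited library had more UHRF1 and less DNMT1 than both controls of its stage. The ratios therefore could not overlap, and their lack of overlap adds nothing to the levels. In controls the mean ratio was 1.84 times as high in 8-cell as in 4-cell embryos. CPM carry no transcript length, so the ratio says nothing of how many molecules of the 1 gene there are for each of the other.

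**Figure D2:**
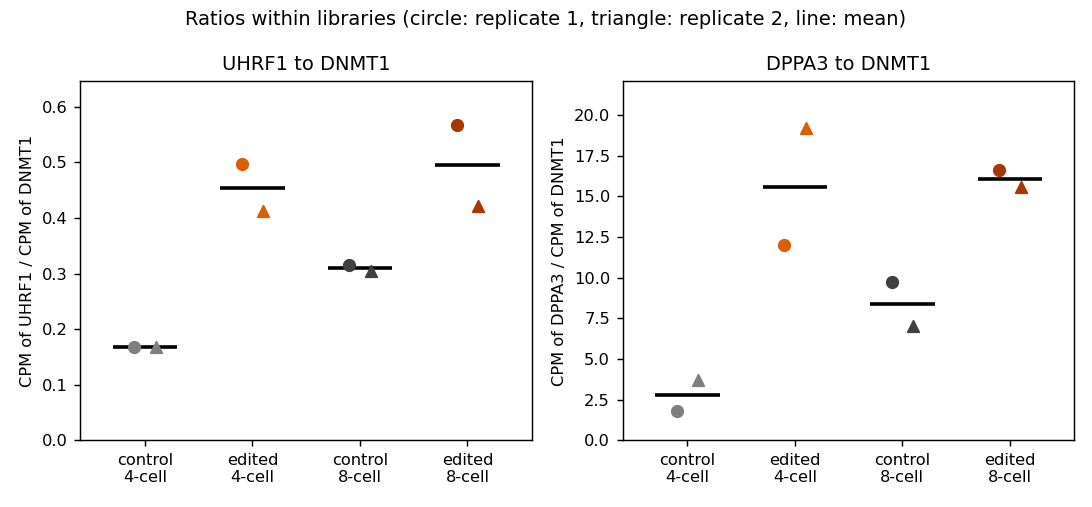
Ratio of the CPM of UHRF1 to DNMT1 (left) and of DPPA3 to DNMT1 (right) within each of the 8 libraries, by group, with 1 symbol per library and a line at the mean of 2. Both ratios were lowest in the 4-cell controls, at 0.168 and 2.77 on average. Each edited library lay above the controls of its stage, which the levels of the single genes had fixed in advance.

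Of 9 other genes that act with maintenance methylation, 6 rose in 4-cell edited embryos and 0 fell, beside 18.9% called higher over all genes. The list's median log2 fold change was 0.81. UHRF2, a paralogue of UHRF1 that also binds modified cytosine, stood at 201 and 291 CPM in 4-cell controls and at 691 and 651 CPM in 4-cell edited embryos (1.46 on the log2 scale, SE 0.236, limma adjusted p-value 1.39e-04). USP7, the deubiquitinase that stabilises UHRF1 and DNMT1, rose by 0.82 on the log2 scale (SE 0.222, limma adjusted p-value 0.00671), from 150 and 187 CPM in controls to 341 and 258 CPM. The call of USP7 was lost without the first 4-cell edited library (limma adjusted p-value 0.0771). Among 8-cell embryos, where 1.08% of all genes were called higher and 14.5% lower, 0 of the 9 rose and PCLAF, a PCNA-binding factor of replicating cells, fell. PCLAF stood at 1.61 and 0.449 CPM in edited and at 8.38 and 18.0 CPM in control embryos (-2.78 on the log2 scale, SE 0.467, limma adjusted p-value 4.67e-04).

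The de novo methyltransferases were not called in any comparison. DNMT3A stood at 6.90 and 9.73 CPM in 4-cell controls against 7.14 and 5.996 CPM with editing, and at 5.32 and 7.89 CPM in 8-cell controls against 7.14 and 5.54 CPM. Its groups overlapped in all 4 comparisons, and its log2 fold change with editing lay between -1.07 and 0.49 at the 4-cell and between -0.82 and 0.74 at the 8-cell stage (95% intervals). DNMT3B stood at 7.77 and 7.36 CPM in 4-cell controls and at 10.04 and 9.21 CPM in 4-cell edited embryos. The 8-cell controls had 11.01 and 14.01 CPM against 13.4 and 11.4 CPM in the edited libraries. Both 8-cell groups were above both 4-cell groups for DNMT3B, by 0.65 on the log2 scale in controls (interval -0.05 to 1.35, limma adjusted p-value 0.203) and by 0.33 in edited embryos (interval -0.37 to 1.03, limma adjusted p-value 0.612).

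Of 7 tested genes that guide de novo methylation, 1 rose and 1 fell at the 4-cell stage. Over all genes 18.9% were called higher and 25.8% lower there. SETD2, which writes the H3K36me3 mark read by DNMT3 enzymes, stood at 18.0 and 17.7 CPM in 4-cell controls and at 6.65 and 4.53 CPM in 4-cell edited embryos (-1.53 on the log2 scale, SE 0.342, limma adjusted p-value 0.00186). It was also lower at the 8-cell stage, with 13.1 and 14.8 CPM in controls and 4.30 and 4.13 CPM in edited embryos (-1.51 on the log2 scale, SE 0.342, limma adjusted p-value 0.00511, and 0.0557 without the second 8-cell control library). KDM1B, the H3K4 demethylase needed for oocyte imprints, rose at the 4-cell stage by 0.81 on the log2 scale (SE 0.262, limma adjusted p-value 0.0189), from 30.8 and 27.03 CPM to 54.5 and 48.8 CPM. That call was lost without the second 4-cell control library (limma adjusted p-value 0.0674) and without the first 4-cell edited library (0.0863).

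The 3 TET genes were likewise not called in any comparison. TET3, the TET enzyme of the egg, stood at 3.62 and 3.34 CPM in 4-cell controls and at 6.57 and 5.79 CPM in 4-cell edited embryos, and the groups did not overlap. The 8-cell libraries, with 4.18 and 6.74 CPM in controls against 7.14 and 5.601 CPM, did overlap. With editing TET3 differed by 0.68 on the log2 scale (interval -0.11 to 1.47) in 4-cell embryos and by 0.21 (interval -0.58 to 1.001) in 8-cell embryos. TET2 stood at 16.1 and 24.1 CPM in 4-cell controls and at 34.6 and 24.2 CPM in 4-cell edited embryos. Its 8-cell values were 37.7 and 23.8 CPM in controls against 36.6 and 32.7 CPM. The 8-cell controls of TET2 differed from each other by 1.58 times. TET1 stood at 1.45 and 2.11 CPM in 4-cell controls against 1.24 and 1.99 CPM with editing, and at 3.29 and 2.10 CPM in 8-cell controls against 0.389 and 1.41 CPM. This last difference was -0.996 on the log2 scale (interval -1.87 to -0.12, limma adjusted p-value 0.13), and the lowest library rested on 13 reads. Without that library, the first 8-cell edited one, the TET1 value was -0.599.

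**Figure D3:**
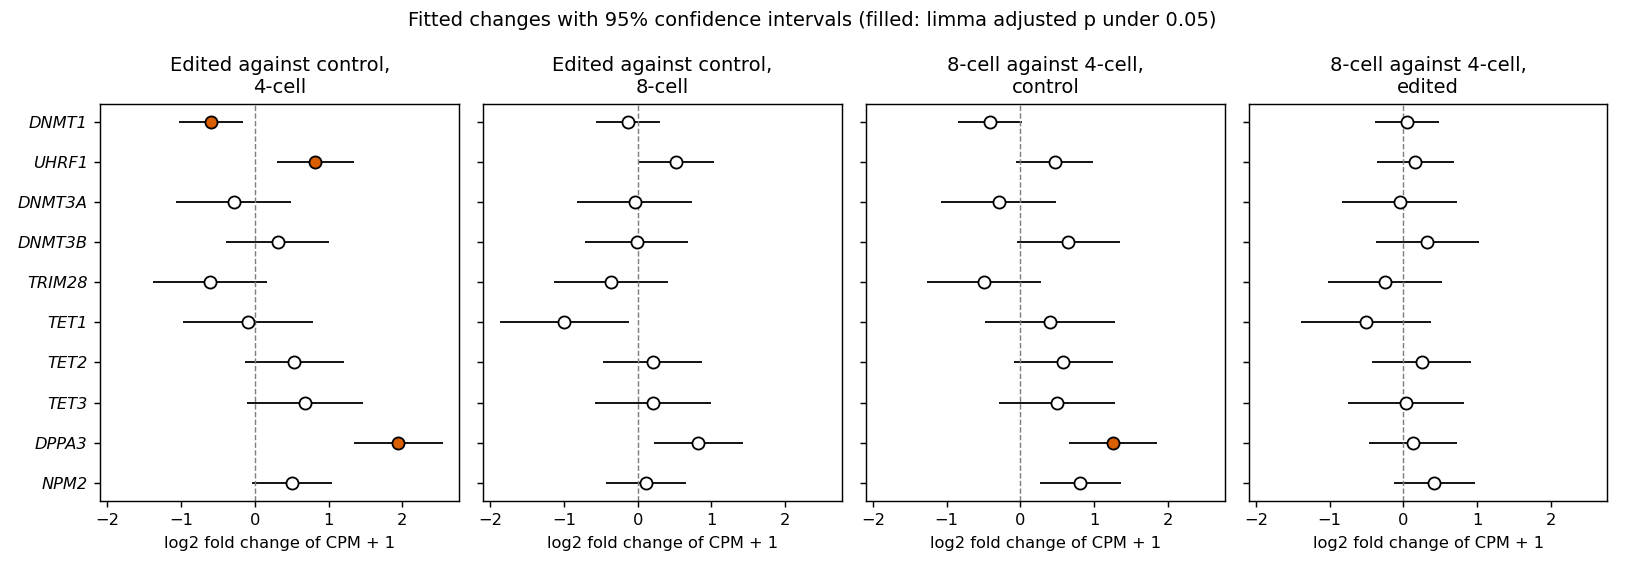
Fitted log2 fold change of CPM + 1 (horizontal axes) of the 10 genes in 4 comparisons, with 95% confidence intervals from limma and filled symbols at an adjusted p-value under 0.05. The symbols of DNMT1, UHRF1 and DPPA3 at the 4-cell stage and of DPPA3 between stages in controls are filled.

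The 7 tested partners of TET enzymes and suppliers of their cofactor moved up and down in 4-cell embryos, with 3 higher (OGT and DCAF1 among them) and 2 lower. Over all genes 18.9% were called higher and 25.8% lower there. IDH2, the mitochondrial enzyme that makes the TET cofactor 2-oxoglutarate, stood at 25.9 and 17.4 CPM in 4-cell controls and at 0.897 and 1.37 CPM in 4-cell edited embryos (-3.39 on the log2 scale, SE 0.383, limma adjusted p-value 6.02e-06). The 8-cell values were 9.64 and 6.53 CPM in controls against 1.34 and 1.26 CPM with editing (-1.96 on the log2 scale, SE 0.383, limma adjusted p-value 0.0017). IDH1, another supplier of this cofactor in the list, was more abundant and was not called with editing. It stood at 116 and 132 CPM in 4-cell controls against 75.9 and 96.8 CPM with editing. Its 8-cell values were 60.2 and 99.9 CPM in controls against 57.6 and 60.5 CPM. CXXC5, a CpG-binding protein that interacts with TET2, was lower by 1.80 and 1.46 on the log2 scale at the 2 stages. Its 8-cell call (limma adjusted p-value 0.00985) was lost without the second 8-cell control library (limma adjusted p-value 0.135) and without either 8-cell edited library (0.0542 and 0.0562).

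The list of base excision repair held 14 genes, not all of them repair enzymes. In 4-cell edited embryos 2 rose (UNG and NEIL3) and 4 fell (TDG, APEX1, GADD45B and GADD45G). Over all genes 18.9% were called higher and 25.8% lower at that stage. TDG, the glycosylase that removes oxidised methylcytosine, stood at 15.0 and 18.4 CPM in 4-cell controls and at 3.21 and 9.77 CPM in 4-cell edited embryos. Its 8-cell values were 11.3 and 10.1 CPM in controls against 1.70 and 1.62 CPM (-2.13 on the log2 scale, SE 0.422, limma adjusted p-value 0.00186). APEX1, the abasic-site endonuclease, fell by 1.45 on the log2 scale at the 4-cell stage (SE 0.213, limma adjusted p-value 6.35e-05). It stood there at 325 and 367 CPM in controls and at 131 and 121 CPM in edited embryos. Its 8-cell values were 227 and 278 CPM in controls and 205 and 236 CPM in edited embryos, and its editing effect differed between stages (difference 1.26, SE 0.301, limma adjusted p-value 0.0352), beside 3.96% of all genes called for that difference (1.95% higher and 2% lower). That call was lost by edgeR (adjusted p-value 0.0856), with TMM factors (0.0518), no filter (0.0923) and the covariate (0.11), and in 6 of the 8 fits without a library. UNG, the uracil glycosylase, rose at the 4-cell stage by 0.88 on the log2 scale (SE 0.236, limma adjusted p-value 0.00666), a call lost without the first 4-cell control or the first 4-cell edited library (limma adjusted p-values 0.0553 and 0.0506).

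Of the maternal factors, DPPA3 showed the widest range. It stood at 1016 and 1962 CPM in the 4-cell controls, which differed by 1.93 times, and at 4873 and 6092 CPM in 4-cell edited embryos. The 8-cell controls had 3953 and 2885 CPM against 6061 and 5901 CPM in the edited libraries. Each edited library was above all 4 control libraries. DPPA3 was higher in edited 4-cell embryos by 1.95 on the log2 scale (interval 1.35 to 2.55, limma adjusted p-value 5.94e-05), and this call held in 18 of the 19 alternatives, all but the covariate of marker transcripts (1.87, limma adjusted p-value 0.252). The 8-cell difference was 0.82 (interval 0.22 to 1.43, limma adjusted p-value 0.0614), and it passed in 5 of 19 alternatives, among them without either 4-cell control library (limma adjusted p-values 0.0166 and 0.0153) and without the first 8-cell control library (0.0359). The order of the group means was 4-cell control, 8-cell control, 4-cell edited and 8-cell edited, and only the last 2 overlapped. Ratios of DPPA3 within libraries were also chosen after the values were seen. That to DNMT1 was 1.81 and 3.73 in 4-cell controls against 11.99 and 19.2 with editing. In 8-cell embryos it was 9.76 and 7.005 in controls against 16.6 and 15.5. DPPA3 was higher and DNMT1 lower in each edited library of a stage, so this ratio could not overlap. The ratio of DPPA3 to UHRF1 was 10.7 and 22.25 in 4-cell controls against 24.2 and 46.6 with editing. Its 8-cell values were 30.95 and 23.04 in controls against 29.3 and 36.8, and these groups overlapped.

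NPM2 stood at 243 and 236 CPM in 4-cell controls and at 468 and 248 CPM in 4-cell edited embryos, which differed from each other by 1.89 times. Its levels in 8-cell embryos were 393 and 452 CPM in controls against 442 and 471 CPM with editing. The 4-cell level differed with editing by 0.51 on the log2 scale (interval -0.04 to 1.05, limma adjusted p-value 0.123). Which 4-cell edited library was used decided this value: it was 0.96 (limma adjusted p-value 0.00918) without the second and 0.048 (0.89) without the first. NPM1, the nucleoplasmin of somatic nucleoli, rose at the 4-cell stage by 0.69 (SE 0.202, limma adjusted p-value 0.0113), from 963 and 1044 CPM to 1572 and 1660 CPM. That call was lost without the second 4-cell edited library (limma adjusted p-value 0.0541). NPM3 was not called in any comparison.

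TRIM28 stood at 19.9 and 19.4 CPM in 4-cell controls and at 16.5 and 9.51 CPM in 4-cell edited embryos. Its 8-cell libraries had 10.01 and 18.5 CPM in controls against 9.98 and 10.8 CPM with editing. The libraries were apart at the 4-cell stage and overlapped at the 8-cell stage, with log2 fold changes of -0.60 (interval -1.38 to 0.17, limma adjusted p-value 0.192) and -0.36 (interval -1.13 to 0.41, limma adjusted p-value 0.568). The 4-cell value of TRIM28 was -0.972 without the first 4-cell edited library and -0.237 without the second. Of 10 tested genes of its complex and of imprint protection, 1 rose (SETDB1, the H3K9 methyltransferase that TRIM28 recruits) and 2 fell at the 4-cell stage. Over all genes 18.9% were called higher and 25.8% lower there. CBX3, the heterochromatin protein HP1 gamma, stood at 261 and 203 CPM in 4-cell controls and at 42.4 and 94.4 CPM in 4-cell edited embryos (-1.85 on the log2 scale, SE 0.309, limma adjusted p-value 1.95e-04). It stood at 131 and 130.2 CPM in 8-cell controls and at 14.6 and 17.3 CPM in 8-cell edited embryos (-2.96 on the log2 scale, SE 0.309, limma adjusted p-value 9.21e-06). HDAC1, a histone deacetylase, fell by 0.83 on the log2 scale at the 4-cell stage (SE 0.231, limma adjusted p-value 0.00813). Reads of NPM1, CBX3 and APEX1 are uncertain to the extent that the counting could split them with processed pseudogenes, and antisense reads cannot be told apart without strand.

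Methyl-CpG readers (6 tested) moved 2 up and 2 down at the 4-cell stage, where 18.9% of all genes were called higher and 25.8% lower. ZBTB33, also called Kaiso, stood at 87.7 and 135 CPM in controls and at 289 and 316 CPM in edited embryos (1.46 on the log2 scale, SE 0.231, limma adjusted p-value 1.20e-04). MBD1 rose from 52.1 and 59.2 CPM to 110.2 and 101 CPM (log2 fold change 0.91). MBD2 and MBD3, which belong to the NuRD complex, were the 2 that fell, and MBD2 was also called at the 8-cell stage (-1.33 on the log2 scale, SE 0.405, limma adjusted p-value 0.0333), a call lost without either 8-cell control library (limma adjusted p-values 0.119 and 0.106), without the first 8-cell edited library (0.331), by edgeR (0.0685) and with no filter (0.105). Of 11 tested genes that supply methyl groups, 3 rose (MAT2B and AHCYL2 among them) and 2 fell (AHCY and SHMT2) at the 4-cell stage. MAT2B, the regulatory subunit of the S-adenosylmethionine synthetase, stood at 407 and 584 CPM in 4-cell controls and at 866 and 947 CPM in 4-cell edited embryos (0.89 on the log2 scale, SE 0.224, limma adjusted p-value 0.0043, and 0.0503 without the first 4-cell control library).

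Over the 8 lists together 66 of 72 genes were tested, and 19 (28.8%) rose and 13 (19.7%) fell at the 4-cell stage, beside 18.9% and 25.8% of all genes. The median log2 fold change was 0.15 for these genes and -0.02 for all. Among 8-cell embryos 0 rose and 7 (10.6%) fell, beside 1.08% and 14.5%. Of the 7 genes, 6 (85.7%) were also called at the 4-cell stage, where they were 18.8% of the 32 called: CBX3, CXXC5, IDH2, MBD2, SETD2 and TDG. Of all tested genes 44.7% were called at the 4-cell stage. That share among all genes called at the 8-cell stage was not computed, so the overlap does not set the lists apart. The 32 calls became 17 without the first 4-cell control library, and the 7 became 11 without either 4-cell control library and with only the 8-cell libraries fitted. With the covariate of marker transcripts limma called 0 of the 66 at both stages (7 of them in 4-cell and 6 in 8-cell embryos had an unadjusted p-value under 0.05).

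**Figure D4:**
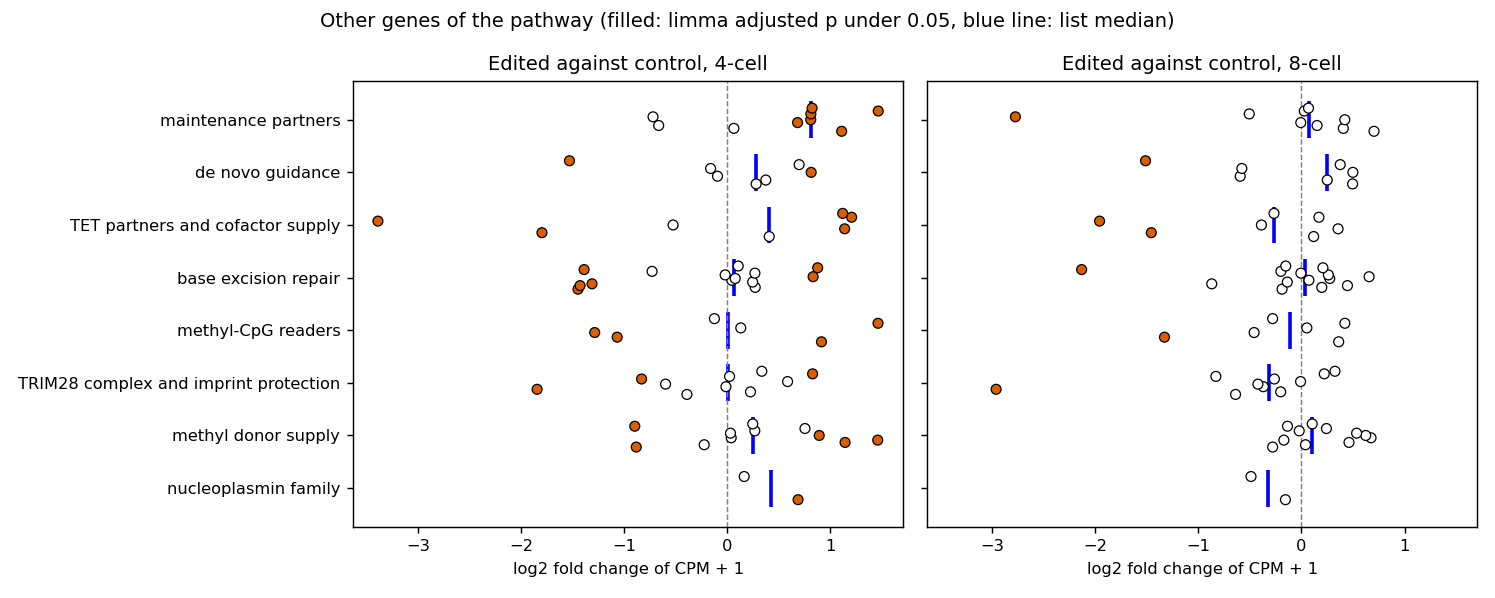
Log2 fold change of CPM + 1 with editing (horizontal axes) of the 66 tested genes of 8 lists around the methylation machinery, at the 4-cell (left) and the 8-cell stage (right), with 1 symbol per gene, filled at a limma adjusted p-value under 0.05, and a blue line at the list's median. Filled symbols lie on both sides of 0 at the 4-cell stage (19 higher, 13 lower), and the 7 filled symbols at the 8-cell stage lie below 0.

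The stages were then compared within each condition. These comparisons share libraries with those of editing, the 4-cell controls in particular. In controls DPPA3 rose from the 4-cell stage to the 8-cell stage by 1.26 on the log2 scale (interval 0.66 to 1.86, limma adjusted p-value 0.0198), and the other 9 genes were not called, beside 9.02% of all genes called (2.75% higher and 6.27% lower). Without the first 4-cell control library the value was 0.78 (limma adjusted p-value 0.217) and without the first 8-cell control library 1.03 (0.199). The call was also lost by edgeR (adjusted p-value 0.0758), with no filter on low values and with only the 4 libraries compared. NPM2 had a log2 fold change of 0.81 (interval 0.27 to 1.36, limma adjusted p-value 0.0569). For 7 of the 10 genes the 4-cell and 8-cell control libraries did not overlap, 5 higher and 2 lower at the 8-cell stage, where 59.2% of all genes did not overlap (28.4% higher and 30.8% lower). Of the other pathway genes UHRF2 rose (log2 fold change 0.88, limma adjusted p-value 0.0339) and IDH2 fell (-1.31, limma adjusted p-value 0.044). Both calls were lost without the first 4-cell control library (limma adjusted p-values 0.259 for UHRF2 and 0.35 for IDH2). That of UHRF2 was lost as well without the first 8-cell control (0.299) or either 4-cell edited library (0.0573 and 0.0566), and that of IDH2 without any single library but the second 4-cell control. Both were lost by edgeR (adjusted p-values 0.094 and 0.102), with no filter, with only the 4 libraries compared and with the covariate, and that of IDH2 with a pseudocount of 0.5 CPM (0.0615), TMM factors (0.051) and the replicate block (0.0525).

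In edited embryos 0 of the 10 genes were called between stages by limma, none had an unadjusted p-value under 0.05, and edgeR and DESeq2 called 0. Of all tested genes 5.18% were called (1.45% higher and 3.73% lower). Libraries did not overlap for 1 gene, DNMT3B, where 52.9% of all genes did not overlap (22.7% higher and 30.2% lower). The intervals of the log2 change were -0.47 to 0.73 for DPPA3, -0.39 to 0.49 for DNMT1 and -0.35 to 0.68 for UHRF1. Among the other pathway genes 3 fell, PCLAF and CBX3 among them, and APEX1 rose from the 4-cell to the 8-cell stage. CBX3 went from 42.4 and 94.4 to 14.6 and 17.3 CPM (-1.93 on the log2 scale, SE 0.309, limma adjusted p-value 0.00482, 0.132 without the second 4-cell edited library and 0.0616 with no filter). The call of APEX1 was lost in 4 of the 8 fits without a library, by edgeR (adjusted p-value 0.0838), with TMM factors (0.061), the replicate block (0.0566), no filter on low values (0.0836) and the covariate of marker transcripts (0.0779), and that of PCLAF without the second 4-cell edited library (limma adjusted p-value 0.199) or the second 8-cell edited library (0.0683), and with no filter (0.0773).

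Between edited and control 8-cell embryos 0 of the 10 genes were called by limma, where 15.6% of all genes were called, and 3 (DPPA3, TET1 and UHRF1) had an unadjusted p-value under 0.05. edgeR and DESeq2 also called 0. Libraries did not overlap for 4 genes, with DPPA3 and UHRF1 higher and DNMT1 and TET1 lower in edited embryos, where 60.4% of all genes did not overlap (27.7% higher and 32.7% lower). The difference of the editing effect between stages was not called for any of the 10 genes by limma, edgeR or DESeq2, and 1 had an unadjusted p-value under 0.05 by limma. That gene was DPPA3, with a difference of -1.12 (interval -1.97 to -0.27, limma adjusted p-value 0.111), which was -1.60 (limma adjusted p-value 0.00924) without the second 4-cell control library and -0.649 without the first, where 0 of the 10 genes had an unadjusted p-value under 0.05. Of the other pathway genes UHRF2 was called for this difference besides APEX1 (-1.44, SE 0.334, limma adjusted p-value 0.0344). UHRF2 stood at 505 and 396 CPM in 8-cell controls and at 397 and 524 CPM in 8-cell edited embryos, and its call was lost by edgeR (adjusted p-value 0.0818), with no filter (0.105) and the covariate (0.0985), and in 6 of the 8 fits without a library.

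The tested genes whose log2 levels over the 8 libraries were most like those of the 3 members with the most reads were listed as a description. They were CDK7 (Pearson r 0.994) and BLM (0.993) for DPPA3, PEX19 (0.997) and CCT5 (0.990) for DNMT1, and SFSWAP (0.986) and CYTH3 (0.978) for NPM2. CDK7, a kinase of transcription initiation, had mean levels of 350.2 CPM in 4-cell controls against 654 CPM with editing, and of 532 CPM in 8-cell controls against 739 CPM. CCT5, a subunit of the chaperonin of the cytosol, had 197 against 97.3 CPM and 122 against 97.9 CPM. The 8 libraries share 4 group means, so such values rest largely on the groups.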

How the data were processed

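Polyadenylated RNA of pools of 5 embryos was amplified and sequenced, per the labels' protocols (a SMART-seq kit, then Nextera XT). The submitters' processing notes name Trim Galore 0.6.7, HISAT2 2.2.1 and featureCounts 2.0.1; build, annotation and filters are not given in the sources used here. The table deposited by the authors holds CPM: its columns sum to between 992528 and 1007024 and within each library 100% of values above 0 lie within 0.05 reads of a whole multiple of 1 step, so whole reads were recovered. Of 12 columns 4 match no sample used here and were left out. Depth was 33527531 to 35122409 reads per library, and 3 reads correspond to 0.0858 to 0.0899 CPM; amplified reads are not independent molecules. Replicates of a group correlated at r 0.971 to 0.978.

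The main test was limma 3.58.1 in R 4.3.3, trend option on, fitted to log2(CPM + 1), a scale that understates changes of weak genes. It covered the 12129 genes whose mean reached 1 CPM, with 1 mean per group over 8 libraries and Benjamini-Hochberg adjustment over all of them (threshold 0.05). edgeR 4.0.16 and DESeq2 1.42.0 on recovered reads were alternatives, with other pseudocounts, filters, scaling, library sets, a replicate block and a covariate of marker transcripts. The code was tested on simulated data. The 10 genes and all lists were chosen with earlier results of these data known. Named besides the 10 and RPL12 were up to 2 called genes per list and comparison by smallest p-value, called genes of counts of 5 or fewer, and the most alike genes. IDH1 was added beside IDH2. No sequences or coordinates are used. Some called genes of the lists are counted but not reported here by name.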

Additional observations from a re-analysis of the deposited data

How the results depend on the processing

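The numbers of the 10 genes called were recomputed under 19 alternatives (18 for the difference between stages). For editing in 4-cell embryos (3 called) the count was 0 with the covariate of marker transcripts and 2 or 3 otherwise, with 2 to 3 when a library was left out. For editing in 8-cell embryos (0 called) it was 1 with only the libraries compared, and 0 to 1 when a library was left out. Between stages in controls (1 called) it was 2 with a pseudocount of 5 CPM and with DESeq2, 0 without a filter, with edgeR, with only the libraries compared and with the covariate, and 0 to 2 when a library was left out. For the difference between stages (0 called) it was 0 to 1 when a library was left out. Between stages in edited embryos it was 0 in each. The causes were not tested. A group left with 1 library was assumed to vary like the others.

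Over all genes, editing in 4-cell embryos gave 5419 calls and 3 with the covariate, and editing in 8-cell embryos 1895 and 57. The covariate was lower with editing at both stages, and that fit cannot tell them apart. The stage comparison of controls gave 1094 calls, 1 without a filter (3755 at an unadjusted p-value under 0.05), 86 with edgeR, 161 with only the libraries compared, 16 with the covariate and 13 to 2114 when a library was left out. That of edited embryos gave 628 calls, 17 without a filter, 324 with edgeR, 1286 with DESeq2, 1149 with only the libraries compared, 312 with the covariate and 7 to 966 when a library was left out. The difference between stages gave 480 calls, 0 by limma without a filter (2993 at an unadjusted p-value under 0.05), 18 with edgeR, 1035 with DESeq2, 44 with the covariate and 0 to 1396 when a library was left out. The ranges for editing were 3741 to 5388 and 1021 to 2063.

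The labels do not say what replicate numbers mark. Same-numbered libraries deviated together with a correlation of 0.108 and -0.086 for editing at the 4-cell and 8-cell stages, and of -0.302 and 0.023 for the stages in control and edited embryos. With a replicate block limma called 5224, 1842, 985, 554 and 386 genes in the 5 comparisons and 3, 0, 1, 0 and 0 of the 10 genes. When numbers 1 and 2 were swapped between the 8-cell controls, an alternative added after seeing the data, it called 5746, 2140, 1690, 872 and 864 genes, and 3, 1, 2, 0 and 1 of the 10.

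Of 933 alternative values for the 10 genes, 38 had the other sign, and none of these was called. With the covariate the log2 values were 0.396 for DNMT3A and -0.446 for TET2 (editing, 4-cell), 0.46 for DNMT3A, 0.272 for DNMT3B, -0.516 for TET2 and -0.244 for NPM2 (editing, 8-cell), and 0.059 for DNMT3A (stages, edited). edgeR gave 0.005 for TET1 (editing, 4-cell) and 0.03 for DNMT3B (editing, 8-cell). TMM factors gave 0.001 for DNMT3A and 0.03 for DNMT3B (editing, 8-cell) and -0.002 for TET3 (stages, edited). DESeq2 gave 0.029 for DNMT3B (editing, 8-cell) and -0.005 for TET3 (stages, edited). When a library was left out, editing in 4-cell embryos gave -0.299 to 0.115 for TET1. Editing in 8-cell embryos gave -0.285 to 0.207 for DNMT3A, -0.173 to 0.149 for DNMT3B, -0.12 to 0.523 for TET2, -0.078 to 0.502 for TET3 and -0.774 to 0.049 for TRIM28. Stages in edited embryos gave -0.128 to 0.229 for DNMT1, -0.207 to 0.109 for DNMT3A, 0 to 0.495 for TET2, -0.119 to 0.184 for TET3, -0.147 to 0.475 for UHRF1, -0.027 to 0.295 for DPPA3, -0.619 to 0.117 for TRIM28 and -0.037 to 0.879 for NPM2. The difference between stages gave -0.61 to 0.012 for UHRF1, -0.169 to 0.653 for TRIM28 and -0.85 to 0.066 for NPM2. The cause was not tested. TET1, with 13 to 115 reads, was the member most limited by depth.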

Other observations

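DNMT3L, the catalytically inactive partner of DNMT3A and DNMT3B, was below the filter on low values of the limma test. It had 48 and 19 reads in the 4-cell controls, 4 and 6 in the 4-cell edited libraries, 26 in each 8-cell control library and 0 in both 8-cell edited libraries. Its mean of 0.756 CPM in 8-cell controls was 8.41 times a floor of 3 reads per library (0.0899 CPM), set in place of the 0 reads of 8-cell edited embryos. The filter of edgeR kept the gene only through its reads in the control libraries, where it was high. Its edgeR p-values are therefore no test of the difference and are not given. ZFP57, a zinc finger protein that brings TRIM28 to imprinted loci, had 8 and 2 reads in the 4-cell controls, 25 and 0 in the 4-cell edited libraries, 1 and 6 in the 8-cell controls and 8 and 0 in the 8-cell edited libraries, and its groups overlapped at both stages. Both genes were singled out after their values were seen.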
